A study of Homo sapiens with 6 samples.

Results

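The genes that copy the genome and carry a cell from G1 into S phase were described as a set of 55 genes named by symbol in LX-2, an immortalised line of human hepatic stellate cells. Each symbol matched a row with an Ensembl identifier in a table of 60780 rows, and all 55 members passed the filter on low counts together with the rest of the 16707 tested genes. The LX-2 cells were sequenced after 24 h in conditioned medium of HCT116, an established line of human colorectal carcinoma, to ask how FGFBP1 made by tumor cells alters stellate cell gene expression. The medium came from HCT116Vector cells (Vector-CM, n = 3) or from HCT116 cells that overexpressed FGFBP1, which binds fibroblast growth factors outside the cell and carries them to their receptors (FGFBP1-CM, n = 3). Both HCT116 lines were made with a lentivirus whose ubiquitin promoter drives the insert, carried EGFP and puromycin resistance, and were selected as puromycin-resistant clones, so each medium came from a selected line. The LX-2 cells of both groups carried no transgene that the labels name, and were kept in DMEM with 10% fetal bovine serum. Nothing in the sources used here says that the libraries of a group came from separate cultures, so the p-values measure the spread between these libraries, which may be technical.

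DNA replication is prepared in G1, when the origin recognition complex, CDC6 and CDT1 load the MCM2 to MCM7 helicase onto chromatin. At the start of S phase, cyclin E with CDK2 and the kinase CDC7 with its partner DBF4 turn the loaded helicase into an active one with CDC45 and the GINS complex, and polymerases held by the PCNA clamp then copy the DNA. Transcription of many of these genes follows the E2F factors, which the retinoblastoma protein restrains until cyclin D and its kinases phosphorylate it. Stellate cells rest in the healthy liver and divide once activated in injury or around tumors, whereas LX-2 is an immortal, dividing line.

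By the quasi-likelihood test of edgeR, 0 of the 55 genes passed an adjusted p of 0.05, which 0.120% of all tested genes did, and 18 had an unadjusted p under 0.05. The 5 genes that supply deoxynucleotides were each lower in all 3 FGFBP1-CM libraries than in any Vector-CM library, as 13.2% of all tested genes were. The log2 fold changes of the 5 ran from -0.35 for the thymidine kinase TK1 to -0.17 for RRM1. The 11 origin licensing genes all had a log2 fold change below 0, led by the helicase subunit MCM7 (-0.43) and the helicase loader CDT1 (-0.35). Of all 16707 tested genes, 8235 had a value below 0. In the other direction stood the repair genes BRCA2 (0.32) and BRCA1 (0.25). A log2 fold change here is FGFBP1-CM over Vector-CM, so that a negative value is a lower level in FGFBP1-CM.

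Over the 55 members the median log2 fold change was -0.08, with 40 members below 0 and 15 above it. The median over all tested genes was 0.00, with 8235 genes below 0 and 8472 above it. Of the 18 members with an unadjusted p under 0.05, 16 were lower in FGFBP1-CM, which is 29.1% of the members beside 10.7% of all tested genes. The other 2 were higher, which is 3.64% of the members beside 11.1% of all tested genes. When libraries were scaled by their totals alone, these counts were 10 lower and 4 higher, beside 7.7% and 14.1% of all tested genes. Without FGFBP1-CM replicate 1 they were 8 lower and 3 higher, with 6.91% of all tested genes lower and 7.73% higher in that fit. Without any other library the lower count was between 11 and 21, beside 6.96% to 11.9% of all tested genes. In 15 members all 3 FGFBP1-CM libraries lay below all 3 Vector-CM libraries, which is 27.3% beside 13.2% of all tested genes, and in 4 members (POLA1, PRIM2, BRCA1 and BRCA2) they lay above, which is 7.27% beside 12.8%. The members were chosen with earlier results known, so no test was made of these shares.

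The adjusted p of a member ranged from 0.0568 to 0.997 in edgeR. TK1 (0.0568), CDT1 (0.0619), BRCA2 (0.0634) and RRM2 (0.0658) lay closest to the threshold, followed by E2F1 (0.0727), RFC2 (0.0788) and GINS1 (0.0955). The Wald test of DESeq2 called 6 of the members, namely BRCA2 as higher and CDT1, E2F1, RFC2, RRM2 and TK1 as lower, while limma on log2(FPKM + 1) called 0. Over all 16707 tested genes, DESeq2 called 585 and that limma fit called 1. The calls turned on the libraries as well. Without FGFBP1-CM replicate 2 the edgeR test called 9 members (BRCA2 higher, and CDT1, E2F1, MCM4, MCM7, ORC1, RFC2, RRM2 and TK1 lower). Without FGFBP1-CM replicate 3 it called CDT1 and TK1, and without any other library it called 0. The whole table moved too, with 883 of 17133 tested genes called without replicate 2 and 402 of 17155 without replicate 3. Without any other library 4 to 72 genes of the whole table were called. The 95% interval of the fold change lay within 2-fold either way for all 55 members, within 1.5-fold for 54, with MCM7 as the exception, and within 1.25-fold for 34.

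**Figure D1:**
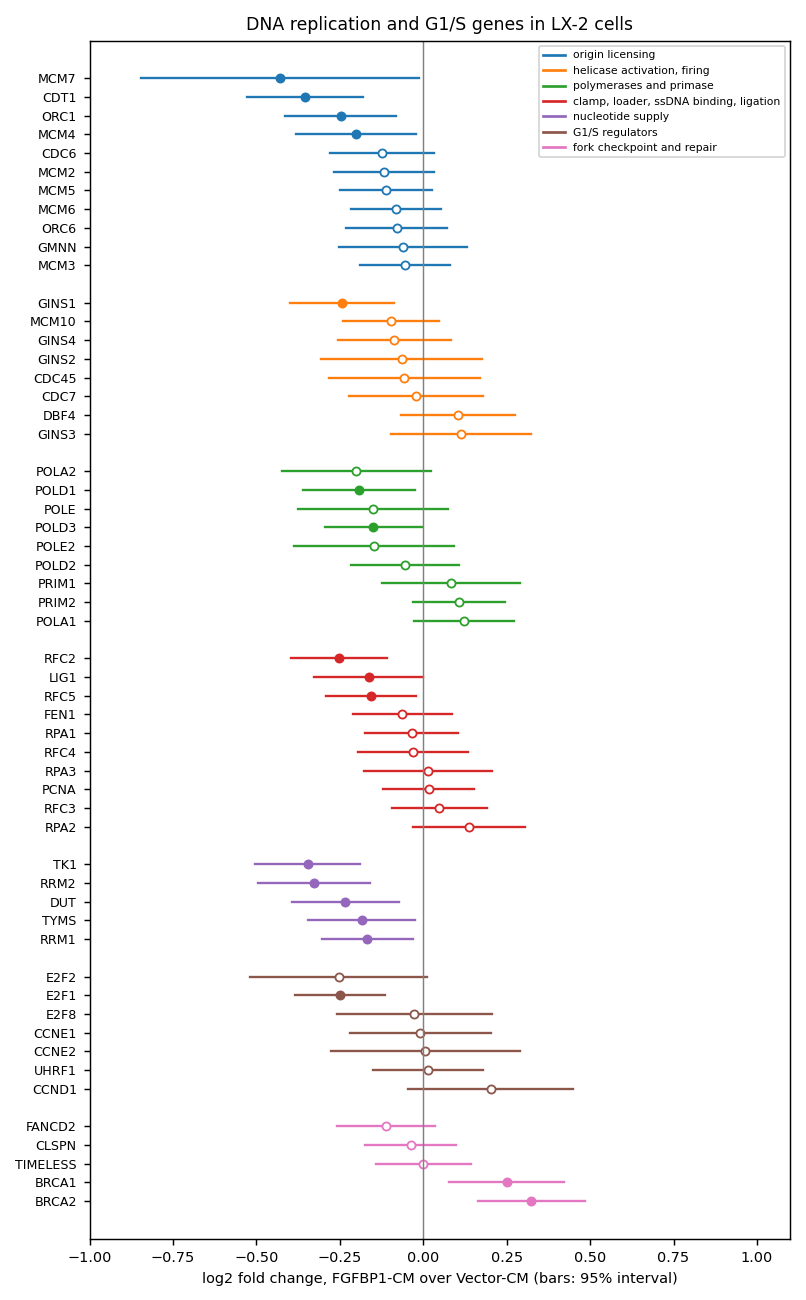
Log2 fold change of each of the 55 genes between FGFBP1-CM and Vector-CM (x axis, n = 3 and 3) by gene (y axis), grouped and colored by role, with bars for the 95% interval from edgeR and filled points for an unadjusted p under 0.05. The 5 nucleotide supply genes lie left of 0 with filled points, BRCA1 and BRCA2 lie right of 0, and MCM7 has the widest interval.

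The 3 FGFBP1-CM libraries did not stand equally far from Vector-CM. Levels in a library are given in CPM, the count scaled to the TMM-adjusted library size. The median log2 ratio of the members' CPM to their Vector-CM mean was -0.13 in FGFBP1-CM replicate 1 and -0.11 in replicate 3, but -0.02 in replicate 2. The same median was -0.01, 0.01 and 0.00 in the Vector-CM libraries. FGFBP1-CM replicate 1 was the lowest of the 6 libraries for 24 members and replicate 3 for 15, against 2 members for replicate 2. Replicate 1 also stood apart over all tested genes, by the chi-square of counts between 2 libraries divided by its degrees of freedom. That value was 10.3 for FGFBP1-CM replicates 1 and 2, 9.5 for 1 and 3, and 4.81 for 2 and 3. In Vector-CM it was 2.81 to 5.71. The part of this spread in the members' values was not tested. Fewer cells in S phase and less of these RNAs per cell cannot be told apart in bulk RNA.

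**Figure D2:**
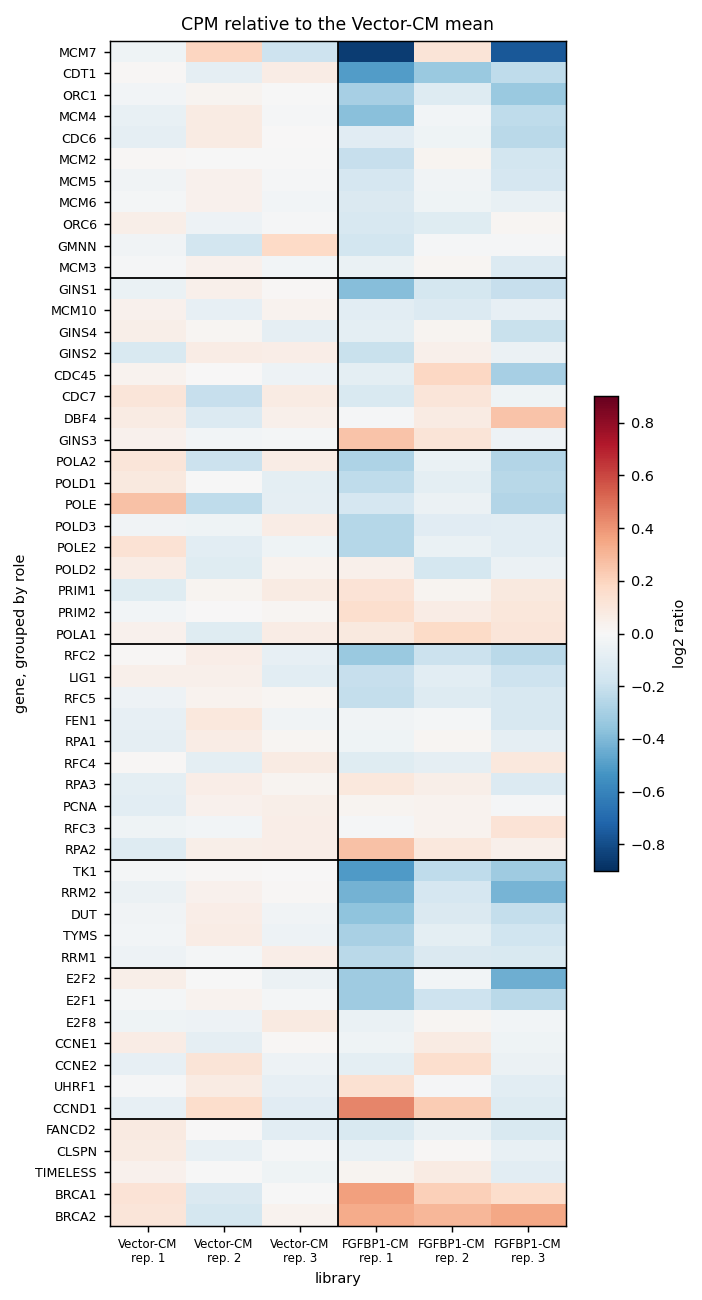
Log2 ratio of the CPM of each gene to its Vector-CM mean (color, blue for lower and red for higher) in each of the 6 libraries (columns), with the 55 genes in rows grouped by role. The nucleotide supply genes are blue in the 3 FGFBP1-CM libraries, most deeply in replicate 1, and MCM7 is blue in replicates 1 and 3 but not in replicate 2.

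Total counts ranged from 14003780 to 18508113 per library, and the members were far from the counting limit, with 106 counts as the lowest value of any member in a library. Of 12 stellate cell and fibroblast markers, 10 were tested. VIM, an intermediate filament of mesenchymal cells, stood at 457 FPKM and COL1A1 at 16.6 FPKM, but ACTA2, the marker of activated stellate cells, had a mean of 1.5 FPKM over the 6 libraries, DES had at most 4 counts in a library, and LRAT, which stores retinol in resting stellate cells, was at 0 in all 6. The summed level of these markers, most of it VIM, was 2861 to 3003 CPM in Vector-CM and 2353 to 2704 CPM in FGFBP1-CM. None of 12 colorectal epithelial markers was tested, their sum was 1.28 to 2.30 CPM in Vector-CM and 1.51 to 1.82 CPM in FGFBP1-CM, and CEACAM5 was at 0 throughout. Of 12 hepatocyte markers 5 were tested. The summed level of the 12 was 40.4 to 42.5 CPM in Vector-CM and 18.9 to 28.1 CPM in FGFBP1-CM, with TTR, APOA1 and APOA2 at 3 counts or fewer. SERPINA1 made most of that sum, at 537, 423 and 420 counts in Vector-CM and 307, 405 and 333 in FGFBP1-CM. APOB was at 57, 41 and 59 counts against 4, 7 and 3, and ALB at 45, 47 and 65 against 16, 7 and 9. AFP and TF, the others tested, were also lower in FGFBP1-CM. The part of the stellate and hepatocyte values in the results on the replication genes was not tested. Endothelial markers summed to 13.9 to 16.0 CPM and 13.0 to 15.6 CPM, and leukocyte markers to 4.57 to 5.39 CPM and 4.49 to 6.95 CPM.

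The promoters of these genes were searched for E2F-type motifs, the letters TTCCCGC, the variant TTCGCGC, the further variant TTGGCGC or the last variant TTGCCGC, on either strand, within the 250 bases before the RefSeq start (GRCh38.p14). The table of promoters held 46 of the 55 members, and 21 of them (45.7%) had a match, beside 17.3% of 11094 promoters of tested genes and 10.9% of all 35116 promoters. The share was 3 of 4 for G1/S regulators, 5 of 8 for the clamp and its partners, 5 of 9 for licensing genes, 4 of 8 for polymerases and primase, 2 of 5 for nucleotide supply, 2 of 7 for helicase activation and firing, and 0 of 5 for fork checkpoint and repair. The 21 members with a match and the 25 without one had median log2 fold changes of -0.08 and -0.08, and 7 of each had an unadjusted p under 0.05 and were lower in FGFBP1-CM. A match is a stretch of letters and not evidence of binding. The first listed promoter of each gene was used, except in the set of all 35116 promoters. For 38 of the 46 members, the bases just past the start were found in a transcript of the gene. The last 120 bases before the start are shown for CDT1 (chr16:88803669-88803788, plus strand), E2F1 (chr20:33686386-33686505, minus strand), PCNA (chr20:5126623-5126742, minus strand) and TK1 (chr17:78187205-78187324, minus strand), since CDT1, E2F1 and TK1 were among the members nearest to the threshold and PCNA had the highest level with a fold change near 0. Each is written 5′ to 3′ in the direction of the gene, with the motif in capitals.
CDT1: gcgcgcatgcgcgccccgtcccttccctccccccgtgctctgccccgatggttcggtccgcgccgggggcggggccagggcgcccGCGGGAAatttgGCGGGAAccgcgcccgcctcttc
E2F1: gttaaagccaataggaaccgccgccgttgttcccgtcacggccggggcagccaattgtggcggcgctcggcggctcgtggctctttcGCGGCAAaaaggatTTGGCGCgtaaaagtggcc
PCNA: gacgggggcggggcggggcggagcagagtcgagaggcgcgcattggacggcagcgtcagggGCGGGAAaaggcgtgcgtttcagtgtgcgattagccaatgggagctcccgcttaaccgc
TK1: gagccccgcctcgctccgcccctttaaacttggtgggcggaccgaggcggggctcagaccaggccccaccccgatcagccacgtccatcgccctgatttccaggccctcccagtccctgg
CDT1 and E2F1 each held 2 matches in this stretch, PCNA held 1, and TK1 held none of these letters in this stretch.

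Among the 11 origin licensing genes, which mark where replication can begin, 4 had an unadjusted p under 0.05 (MCM7, CDT1, ORC1 and MCM4). All 4 were lower in FGFBP1-CM, a share of 36.4% beside 10.7% of all tested genes. The median log2 fold change of the 11 was -0.12. CDT1 (chromosome 16, 88803213 to 88809258, plus strand, GENCODE 29 on GRCh38) brings the MCM helicase to the origin. CDT1 stood at 68.8, 64.5 and 71.6 CPM in Vector-CM replicates 1 to 3 and at 48.1, 54.3 and 58.2 CPM in FGFBP1-CM replicates 1 to 3. The groups did not overlap, and the log2 fold change was -0.35 (SE 0.0802; adjusted p = 0.0619, edgeR). GMNN encodes geminin, which binds CDT1 and blocks a second round of loading, and it had a log2 fold change of -0.06. The FPKM ratio of CDT1 to GMNN was 1.25 ± 0.0866 (SD, n = 3) in Vector-CM and 1.01 ± 0.0462 (SD, n = 3) in FGFBP1-CM. That ratio was 1.15 to 1.31 in Vector-CM and 0.975 to 1.06 in FGFBP1-CM, without overlap, and an exact permutation test of 3 against 3 libraries cannot go below 0.1. ORC1, the largest subunit of the origin recognition complex, stood at 42.7, 44.2 and 43.3 CPM against 35.2, 40.0 and 34.5 CPM. Its groups did not overlap either, and the log2 fold change was -0.25 (SE 0.0772; adjusted p = 0.105, edgeR). CDC6, the loading partner of CDT1, and the complex subunit ORC6 had log2 fold changes of -0.12 and -0.08, with overlapping groups.

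The 6 subunits of the MCM2 to MCM7 ring, which unwinds the DNA ahead of the fork, all had log2 fold changes below 0, and the differences between subunits were not tested. MCM7 (chromosome 7, 100092728 to 100101940, minus strand) stood at 95.4, 112 and 86.2 CPM in Vector-CM and at 54.2, 106 and 57.7 CPM in FGFBP1-CM. FGFBP1-CM replicate 2 lay inside the Vector-CM range while the other 2 libraries of its group lay well below it. The log2 fold change of MCM7 was -0.43 (SE 0.194; adjusted p = 0.217, edgeR), with a 95% interval of -0.85 to -0.01. Without FGFBP1-CM replicate 2 the value was -0.81, without replicate 1 it was -0.25, and without replicate 3 it was -0.29. MCM7 shares 392 exon bases with AP4M1 on the opposite strand, and whether counting used strand is not stated.

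MCM4 was at 379, 417 and 394 CPM in Vector-CM and at 306, 390 and 339 CPM in FGFBP1-CM, with replicate 2 again within the Vector-CM range and a log2 fold change of -0.20 (SE 0.0833). MCM2 was at 155, 153 and 153 CPM against 133, 156 and 137 CPM. MCM3 was at 242, 251 and 240 CPM against 234, 247 and 224 CPM. For every subunit from MCM2 to MCM7, FGFBP1-CM replicate 2 was the highest library of its group. MCM5 was at 114, 120 and 116 CPM against 105, 114 and 105 CPM, and MCM6 at 100, 104 and 99.2 CPM against 92.3, 98.2 and 96.6 CPM. Neither of these overlapped between groups before rounding, although their log2 fold changes were only -0.11 and -0.08. The proteins form a ring with a copy of each subunit, whereas the RNAs were unequal by FPKM. The highest subunit was 4.13 to 4.22 times the lowest in the Vector-CM libraries and 4.32 to 5.20 times in the FGFBP1-CM libraries, without overlap. The size of this ratio depends on the gene lengths used.

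In helicase activation and origin firing, 6 of 8 genes lay below 0, the median log2 fold change was -0.06, and 1 gene, GINS1, was lower at an unadjusted p under 0.05, a share of 12.5% beside 10.7% of all tested genes. GINS1, a subunit of the 4-part GINS complex that completes the active helicase, stood at 105, 113 and 110 CPM in Vector-CM and at 83.9, 97.8 and 94.6 CPM in FGFBP1-CM. The groups did not overlap, and the log2 fold change was -0.24 (SE 0.0718; adjusted p = 0.0955, edgeR). The values of the other subunits were nearer 0 or above it, and the difference between subunits was not tested. GINS2 was at 11.8, 13.6 and 13.5 CPM against 11.3, 13.4 and 12.5 CPM, with overlapping groups and a log2 fold change of -0.06. GINS3 was at 19.9, 19.0 and 19.1 CPM against 23.1, 21.0 and 18.7 CPM, with a log2 fold change of 0.11, and GINS4 had one of -0.09. CDC45, which joins GINS on the helicase, had a log2 fold change of -0.06, and MCM10, which helps the helicases part, had one of -0.10. The kinase CDC7 (-0.02) and its activating subunit DBF4 (0.10) lay on either side of 0.

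Of the 9 polymerase and primase genes, 6 lay below 0 and the median log2 fold change was -0.15. POLD1, the catalytic subunit of the lagging strand polymerase delta, stood at 46.3, 43.4 and 41.0 CPM in Vector-CM and at 37.1, 40.9 and 36.7 CPM in FGFBP1-CM. Its groups lay just apart, and the log2 fold change was -0.19 (SE 0.0777; adjusted p = 0.178, edgeR). POLD3, an accessory subunit of the same enzyme, was at 225, 224 and 240 CPM against 192, 214 and 215 CPM, also without overlap, with a log2 fold change of -0.15 and an edgeR adjusted p of 0.215 (SE 0.0671). POLD2, the third subunit measured here, had a log2 fold change of -0.05. POLE, the catalytic subunit of the leading strand polymerase epsilon, and its partner POLE2 had log2 fold changes of -0.15 and -0.15 with overlapping groups. Without Vector-CM replicate 1, the highest library for both, the values were 0.00 for POLE and -0.07 for POLE2.

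Polymerase alpha, which extends the RNA primer, had its subunits on opposite sides of 0. POLA1, the catalytic subunit, stood at 72.5, 65.3 and 73.8 CPM in Vector-CM and at 75.0, 79.6 and 76.0 CPM in FGFBP1-CM, so that the groups did not overlap and the log2 fold change was 0.12 (SE 0.0693). POLA2, its regulatory subunit, was at 25.5, 20.7 and 24.8 CPM against 19.5, 22.7 and 19.7 CPM, with overlapping groups and a log2 fold change of -0.20 (SE 0.104). The FPKM ratio of POLA1 to POLA2 was 1.07 ± 0.0556 (SD, n = 3) in Vector-CM and 1.34 ± 0.0719 (SD, n = 3) in FGFBP1-CM, without overlap. POLA2 shares 2012 exon bases with a gene model on the same strand, so its counts are less certain. The primase subunits PRIM1 and PRIM2, which lay down the primer, had log2 fold changes of 0.08 and 0.11.

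The sliding clamp, its loader, the single-strand binding proteins and the enzymes that join Okazaki fragments gave a median log2 fold change of -0.03 over 10 genes. PCNA, the clamp itself and a common marker of proliferation, stood at 176, 193 and 195 CPM in Vector-CM and at 191, 192 and 187 CPM in FGFBP1-CM. Its groups overlapped, its log2 fold change was 0.02, and the 95% interval of that value was -0.12 to 0.15. Under the correction for GC content and length the PCNA value was -0.01. RFC2, a small subunit of the clamp loader, was at 108, 112 and 102 CPM against 85.2, 94.0 and 90.9 CPM. The groups did not overlap for RFC2, and the log2 fold change was -0.25 (SE 0.067; adjusted p = 0.0788, edgeR).

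RFC5, another loader subunit, had a log2 fold change of -0.16 without overlap, while RFC3 (0.05) and RFC4 (-0.03) were near 0. The FPKM ratio of RFC2 to RFC3 was 1.79 ± 0.141 (SD, n = 3) in Vector-CM and 1.45 ± 0.0702 (SD, n = 3) in FGFBP1-CM, and the libraries of the groups did not overlap. These are the member loader subunits with the lowest and the highest log2 fold change. LIG1, which seals nicks between Okazaki fragments, was at 40.4, 40.3 and 36.6 CPM against 33.8, 36.6 and 34.4 CPM, with a log2 fold change of -0.16 (SE 0.0759). The flap nuclease FEN1, which acts just before LIG1, had a log2 fold change of -0.06. RPA2, a subunit of the single-strand DNA binding trimer, was at 57.9, 64.8 and 65.1 CPM against 75.0, 66.7 and 64.6 CPM, and FGFBP1-CM replicate 1 was the library that stood well clear of the rest. RPA2 had a log2 fold change of 0.14, and its partners RPA1 and RPA3 had values of -0.03 and 0.01.

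Nucleotide supply was the role with the lowest median, at -0.23 over its 5 genes, and its summed level was 603, 626 and 623 CPM in Vector-CM and 478, 553 and 515 CPM in FGFBP1-CM. TK1 (chromosome 17, 78174075 to 78187233, minus strand) salvages thymidine and is known to peak in S phase. TK1 stood at 162, 165 and 164 CPM in Vector-CM, a narrow range, and at 115, 140 and 131 CPM in FGFBP1-CM. The groups did not overlap, and the log2 fold change was -0.35 (SE 0.0729; adjusted p = 0.0568, edgeR). RRM2 (chromosome 2, 10120698 to 10131419, plus strand), the S phase subunit of ribonucleotide reductase, was at 143, 152 and 149 CPM against 110, 133 and 111 CPM. Here too every FGFBP1-CM library lay below every Vector-CM library, with a log2 fold change of -0.33 and an edgeR adjusted p of 0.0658 (SE 0.078). RRM1, the other subunit of the reductase, had a log2 fold change of -0.17.

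DUT, which breaks down dUTP and so keeps uracil out of DNA, had a log2 fold change of -0.23 with an edgeR adjusted p of 0.110 (SE 0.0742), and TYMS, which makes thymidylate, had one of -0.19 with an edgeR adjusted p of 0.177 (SE 0.0746). Pseudogene copies of DUT each held at most 1.39% of the counts of DUT itself. TYMS shares 967 exon bases with ENOSF1 on the opposite strand, which held 4570 counts over the 6 libraries beside 4646 for TYMS. Reads could have moved between TYMS and ENOSF1. RRM2 shares 1077 exon bases with a model on its own strand, but that model has no row among the deposited counts. Among 12 other genes of nucleotide supply (not members), 1 was lower and 1 was higher at an unadjusted p under 0.05, with a median of 0.08. That is 8.33% each way, beside 10.7% lower and 11.1% higher of all tested genes. The thymidylate kinase DTYMK had a log2 fold change of -0.18 and the dNTP hydrolase SAMHD1, which acts against supply, had one of 0.17.

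The 7 G1/S regulators had a median log2 fold change of -0.01. E2F1 (chromosome 20, 33675683 to 33686404, minus strand), the activator of many replication genes, stood at 125, 129 and 125 CPM in Vector-CM and at 101, 111 and 107 CPM in FGFBP1-CM. The groups did not overlap for E2F1, and the log2 fold change was -0.25 (SE 0.0629; adjusted p = 0.0727, edgeR). E2F2, a second activator, was at 12.9, 12.4 and 12.0 CPM against 9.97, 12.2 and 9.18 CPM. FGFBP1-CM replicate 2 lay within the Vector-CM range for E2F2, and the log2 fold change was -0.25 (SE 0.123; adjusted p = 0.250, edgeR). E2F8, a repressor of the family, had a log2 fold change of -0.03, and UHRF1, which carries DNA methylation onto the new strand, had one of 0.01.

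The 3 member cyclins, CCND1, CCNE1 and CCNE2, had log2 fold changes near 0 or above it, while CCND3, a cyclin D gene that is not a member, had one of -0.18. CCND1 (chromosome 11, 69641087 to 69654474, plus strand), the cyclin D1 gene and a target of growth factor signaling, stood at 486, 571 and 477 CPM in Vector-CM and at 692, 600 and 472 CPM in FGFBP1-CM. FGFBP1-CM replicates 1 and 2 were above every Vector-CM library and replicate 3 was below them all, with a log2 fold change of 0.20 and an edgeR adjusted p of 0.324 (SE 0.115). Without replicate 3 the value was 0.34, and without replicate 1 it was 0.07. CCNE1, the cyclin E1 gene, was at 16.0, 14.5 and 15.4 CPM against 14.9, 16.1 and 14.9 CPM, and CCNE2 at 6.98, 7.96 and 7.14 CPM against 6.91, 8.16 and 7.10 CPM. The log2 fold changes of CCNE1 and CCNE2 were -0.01 and 0.01, and each took the other sign in some alternatives. CCNE2 shares 1629 exon bases with INTS8 on the opposite strand, which held 4837 counts beside 718 for CCNE2.

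Fork checkpoint and repair was the only role with members at an unadjusted p under 0.05 on the higher side. BRCA2 (chromosome 13, 32315474 to 32400266, plus strand), which protects stalled replication forks, stood at 82.0, 68.0 and 77.8 CPM in Vector-CM and at 95.7, 93.2 and 96.5 CPM in FGFBP1-CM. The groups did not overlap, and the log2 fold change was 0.32 (SE 0.0743; adjusted p = 0.0634, edgeR). BRCA1 (chromosome 17, 43044295 to 43170245, minus strand), its partner in homologous recombination, was at 129, 108 and 118 CPM against 153, 137 and 132 CPM. Every FGFBP1-CM library again lay above every Vector-CM library, with a log2 fold change of 0.25 and an edgeR adjusted p of 0.110 (SE 0.0792). Vector-CM replicate 2 was the lowest library for both genes. The FPKM ratio of BRCA1 to BRCA2 was 2.14 ± 0.0551 (SD, n = 3) in Vector-CM and 2.03 ± 0.154 (SD, n = 3) in FGFBP1-CM, with overlap. CLSPN, the adaptor that passes the stalled fork signal to CHEK1, was at 160, 145 and 151 CPM against 145, 153 and 145 CPM. Its log2 fold change was -0.04, that of the fork protection gene TIMELESS was 0.00, and that of FANCD2, of the interstrand crosslink pathway, was -0.11.

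The 16 members that were lower at an unadjusted p under 0.05 and the 2 that were higher were set beside each other by their transcripts, with no test. The longest GENCODE 29 transcript of the 16 had a median GC content of 50.3% and a median length of 3161 bases, close to the 47.7% and 3231 bases of all tested genes. The GC content of the 16 ran from 41.4% to 65%, with POLD1 at 65%, CDT1 at 64.9%, TK1 at 62.8% and E2F1 at 62.5%. BRCA1 and BRCA2 had 41.9% and 36.3% GC and 7270 and 11986 bases. With the loess trend on GC content and length removed from each library, the log2 fold change of BRCA2 was 0.23 and that of BRCA1 was 0.19. The same correction gave -0.28 for CDT1, -0.29 for TK1, -0.19 for E2F1 and -0.12 for POLD1, each nearer 0 than without it. RRM2 moved the other way, to -0.36, and then passed the threshold (adjusted p = 0.0474, edgeR). Over all members the median under the correction was -0.09.

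Genes of the same pathways that are not members were counted beside them. Of 103 such genes, 0 passed the adjusted threshold in edgeR and in limma and 8 did in DESeq2. At an unadjusted p under 0.05, 18 were lower (17.5% beside 10.7% of all tested genes) and 11 higher (10.7% beside 11.1%). The median log2 fold change of the 103 was -0.03. The 27 other G1/S control genes held 8 of the lower ones (29.6% of the 27) and 1 of the higher ones (3.7%). MYBL2, which encodes the B-MYB transcription factor, stood at 98.0, 95.6 and 92.4 CPM against 63.3, 80.6 and 68.3 CPM, without overlap, and the log2 fold change was -0.43 (SE 0.0838; adjusted p = 0.0568, edgeR). CDKN1C, an inhibitor of cyclin-dependent kinases, was at 4.80, 5.06 and 5.12 CPM against 2.22, 2.95 and 3.06 CPM, with a log2 fold change of -0.87 and an edgeR adjusted p of 0.0568 (SE 0.178). MYBL2, which acts for proliferation, and CDKN1C, which acts against it, thus lay on the same side.

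Of the 28 other replication factors, 2 were lower and 2 higher at an unadjusted p under 0.05. That is 7.14% each way, beside 10.7% lower and 11.1% higher of all tested genes. The median of these factors was -0.03. The histone chaperone ASF1A (0.38) and the origin recognition subunit ORC5 (0.40) had the lowest p among them. Of 16 other checkpoint and recombination genes, 3 were lower (18.8%) and 4 higher (25%), with FANCA at -0.38 and the helicase BRIP1 at 0.29. Of 20 mitotic genes, 4 were lower (20%) and 3 higher (15%), and 13 lay below 0, with a median of -0.03. The lower ones were CDK1 (-0.25), KIF20A (-0.25), UBE2C (-0.245) and AURKB (-0.22). The higher ones were the kinetochore genes CENPF (0.38) and CENPE (0.37) and the gene KIF11 (0.19). MKI67, the Ki-67 gene, had a log2 fold change of 0.07 with overlapping groups. The summed level of the mitotic genes was 4748 to 5207 CPM in Vector-CM and 4535 to 5338 CPM in FGFBP1-CM.

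**Figure D3:**
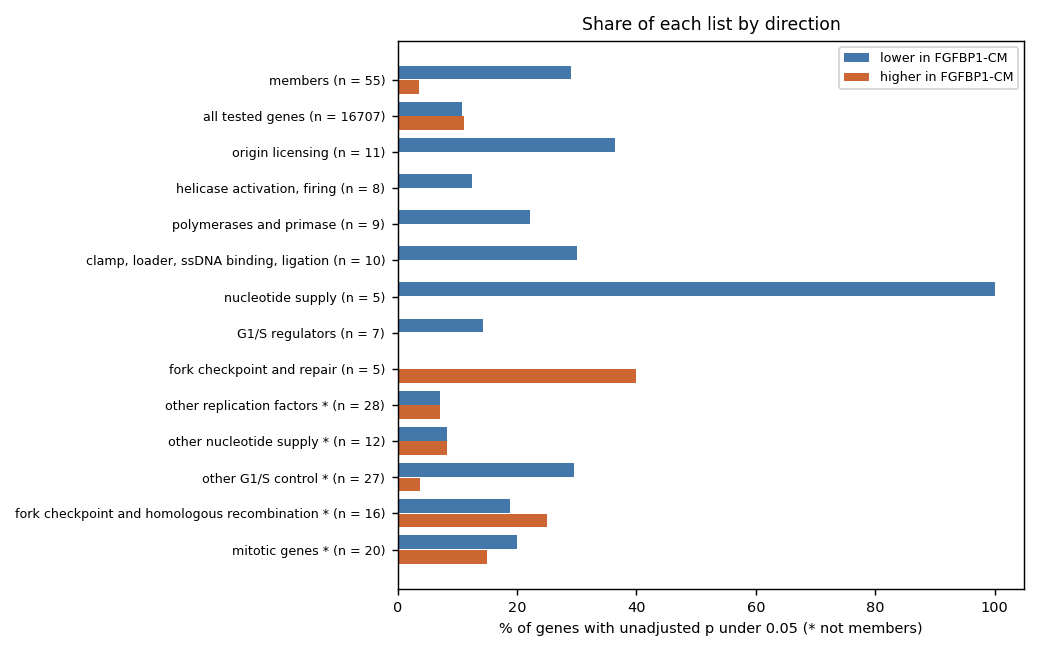
Percentage of the genes of each list (y axis, with the number tested) that had an unadjusted p under 0.05 and were lower (blue) or higher (orange) in FGFBP1-CM, for the members, all tested genes, the 7 roles of the members and 5 lists of genes that are not members. Nucleotide supply reaches 100% lower with 5 genes, fork checkpoint and repair has 40% higher with 5 genes, and all tested genes have 10.7% lower and 11.1% higher.

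Levels were compared between genes per length, as FPKM, a level scaled by gene length and library depth. The gene lengths behind FPKM are not given in the sources used here, so the order of genes and ratios between them depend on those lengths. The median member stood at 15.4 FPKM over the 6 libraries, beside 3.9 FPKM for all tested genes. PCNA was the highest at 134 ± 4.86 FPKM (SD, n = 6), followed by CCND1 at 115 ± 19.9 FPKM (SD, n = 6), whose spread reached PCNA, and TK1 at 79.0 ± 10.1 FPKM (SD, n = 6). MCM3 (65.6 FPKM), FEN1 (59.3 FPKM) and MCM4 (53.0 FPKM) were the only others over 50 FPKM. RFC2, E2F1 and RRM1 came next at 44.5, 43.0 and 42.1 FPKM. The lowest were CCNE2 at 1.67 ± 0.116 FPKM (SD, n = 6), E2F2 at 2.09 FPKM and E2F8 at 2.65 FPKM, so the members spanned 80.3-fold in level.

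The order was loose, since 43 of the 54 pairs of neighbours lay within 1 SD of each other. The E2F family itself was far from equal, with the activator E2F1 at 43.0 FPKM and its relative E2F2 at 2.09 FPKM. Cyclin D1 RNA was 18.6 ± 3.26 (SD, n = 6) times cyclin E1 RNA per length. RRM1 stood above RRM2, with an FPKM ratio of 2.76 ± 0.101 (SD, n = 3) in Vector-CM and 3.10 ± 0.281 (SD, n = 3) in FGFBP1-CM, where the libraries overlapped. The mean CPM in Vector-CM was 189 for RRM1 and 148 for RRM2, so the size of this ratio depends on the lengths used.

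**Figure D4:**
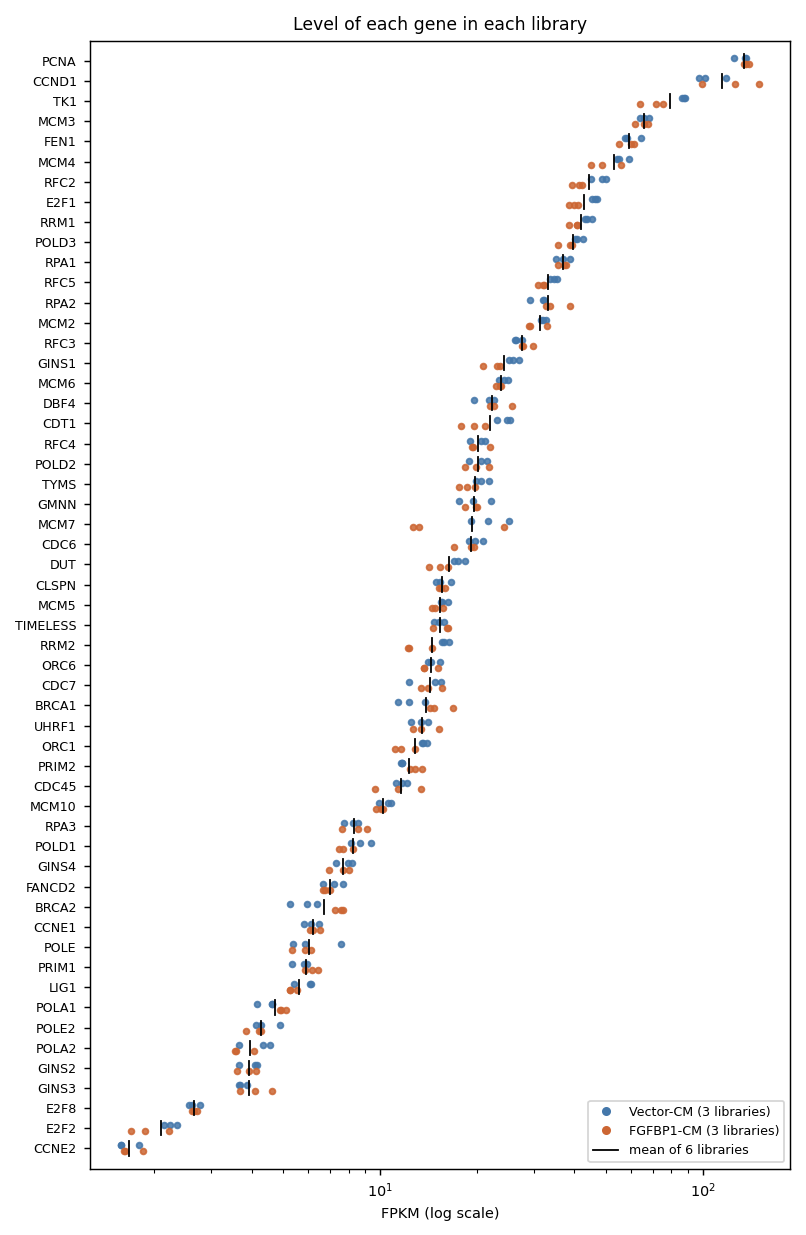
FPKM of each of the 55 genes (y axis, ordered by the mean of 6 libraries) on a log scale (x axis), with a point for each Vector-CM (blue) and FGFBP1-CM (orange) library and a black bar for the mean. PCNA lies at the top at 134 FPKM and CCNE2 at the bottom at 1.67 FPKM, and MCM7 has 2 FGFBP1-CM points far to the left of the rest.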

How the data were processed

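RNA of LX-2 cells was sequenced in 6 libraries. According to the labels' processing notes and the methods, the authors aligned reads with HISAT2 2.0.5 and counted them per gene with featureCounts 1.5.0-p3, and deposited the raw count of each gene. The authors also deposited FPKM values computed from these counts and gene length. The notes name DESeq2 1.16.1 and edgeR, and give hg18 as the build. The annotation release and use of strand are not given in the sources used here, and RNA selection is described both as poly(A) selection and as ribosomal RNA depletion. Coordinates, GC content and lengths come from GENCODE 29 (GRCh38) by Ensembl identifier and need not be those used in counting.

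Counts were fitted over the whole table with edgeR 4.0.16 in R 4.3.3 (filterByExpr, TMM, quasi-likelihood F-test) with group as the sole term, and the Benjamini-Hochberg adjustment ran over all 16707 tested genes, with 0.05 as the threshold. SE is the size of the log2 fold change divided by the square root of F. Depth was 14003780 to 18508113 counts, and 3 counts, the most that a count of 0 allows, are 0.158 to 0.217 CPM, which covers counting error only. The members, the lists of other genes and the motifs were chosen with earlier results of these data known. The rule for values in every library took the 6 highest and 6 lowest log2 fold changes, the highest and lowest FPKM and lowest p of each role, the MCM2 to MCM7 subunits, and PCNA, CCND1, CCNE1, CCNE2 and E2F1. From each list of other genes it took the 2 with the lowest p. MKI67, CCND3 and the remaining mitotic genes with an unadjusted p under 0.05 were added after their values were seen. The rule did not set the gene pairs for FPKM ratios. Of these pairs, only CDT1 to GMNN, POLA1 to POLA2 and RFC2 to RFC3 did not overlap between groups. The ratio of the highest to the lowest of the MCM2 to MCM7 subunits, which is not a fixed pair, did not overlap either. The pairs PRIM1 to PRIM2, CDC7 to DBF4, POLE to POLE2, POLD1 to POLD2, MCM3 to MCM7 and MCM2 to MCM7 were also computed and overlapped.

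The fit was repeated with RLE scaling, with library size only, without a filter, with a mean of at least 1 CPM, DESeq2 1.42.0, limma 3.58.1 with a pseudocount of 1 or 0.1 on log2 FPKM, a replicate block, a correction for GC content and length (loess, span 0.3; both values known for 98.2% of tested genes) without and with the block, and leaving out each library. The fits were tested on simulated data.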

Additional observations from a re-analysis of the deposited data

How the results depend on the processing

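The median log2 fold change of the members stayed below 0 in each of the 16 alternative fits, between -0.10 without FGFBP1-CM replicate 2 and -0.04 in limma on log2(FPKM + 1). The number of members past the adjusted threshold was 0 in edgeR and moved to 9 with no filter on low counts, 6 in DESeq2, 1 with the correction for GC content and length, and 1 with that correction and the replicate block. With no filter the 9 were BRCA1, BRCA2 and CCND1 as higher and CDT1, E2F1, MCM7, RFC2, RRM2 and TK1 as lower, and the number of genes called in the whole table moved from 20 to 1382. In DESeq2 the whole-table number was 585, with the GC and length correction it was 139, and with the replicate block added to that correction it was 88. Each limma fit called 1 gene in the whole table. At an unadjusted p under 0.05 the number of members was 18. By the adjusted threshold, leaving out a library gave 0 to 9 members, and RLE scaling, library size only, a mean of at least 1 CPM and both limma fits gave 0.

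With the replicate block 0 members were called, while 90 genes were called in the whole table. Same-numbered libraries had correlations of deviations of -0.118, -0.022 and 0.148 over 15033 genes, so the numbers were not taken to pair the samples.

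For the 103 other pathway genes, whose alternatives were chosen after seeing the data, the number called was 16 with no filter, 8 in DESeq2, 1 with the GC and length correction, 1 with that correction and the replicate block, and 0 to 6 when a library was left out.

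Over all 55 members, 14 took both signs when libraries were left out in turn and 41 kept their sign. Of the 29 members with values in every library, those that took the other sign were all near 0. CCNE1 was 0.0249 with library size only, 0.0031 with no filter, 0.0240 in limma with a pseudocount of 1 and 0.0275 with 0.1, and ranged from -0.0460 to 0.0274 when a library was left out. CCNE2 was -0.0684 with the GC and length correction, -0.0713 with the replicate block added, and ranged from -0.0685 to 0.0635 without a library. PCNA was -0.0150 with that correction, -0.0138 with the replicate block added, and ranged from -0.0273 to 0.0433. CLSPN ranged from -0.0719 to 0.0026 and GINS2 from -0.1290 to 0.0035. The cause of these moves was not tested. The lowest count of a member in a library was 106, and each group had 3 libraries. Over all tested genes, libraries of a group spread more than counting error alone allows, with a chi-square over degrees of freedom of 2.81 to 10.3. The share of counting error in the intervals of the members was not tested.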

Other observations

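2 genes of the other pathway lists had very low values beside their pathway, and they were picked out after their values were seen. NUSAP1, a mitotic spindle gene, stood at 1.04 to 1.82 CPM in the 6 libraries, and RNASEH2A, the catalytic subunit of RNase H2, stood at 0.844 to 1.51 CPM. Whether reads of these genes were lost in counting was not tested.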
